A study of Mus musculus with 2 samples.

Results

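The replication-dependent histone genes were taken as all genes of the deposited tables with a symbol of the form Hist1h to Hist4h and at least 1 UMI in both libraries. Each UMI, a short random barcode added before amplification, counts a single captured RNA molecule. Of 32285 genes, 67 had such a symbol and 62 met the count rule. Hist1h2bq, Hist2h2aa2, Hist1h2ba and Hist1h2aa had 0 UMIs in both libraries, and Hist1h4m had 0 in one of them. The 62 genes comprised 6 H1, 16 H2A, 16 H2B, 12 H3 and 12 H4 genes. By their symbols, 50 lay in the Hist1 cluster on chromosome 13, 9 in Hist2 on chromosome 3, 2 in Hist3 on chromosome 11 and 1 in Hist4 on chromosome 6.

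The data were 2 single-cell RNA sequencing libraries from wild-type (WT) mouse embryos at embryonic day 14.5, named replicate 2 and replicate 4 after their titles. The titles name EomesDot and the series an Eomes-Cre line, whereas the study describes C57BL/6J embryos, and how these relate is not stated. Dorsal telencephalon was dissociated, although the tissue label reads brain hemispheres. Both libraries belonged to one group, so cell classes and cell cycle states were compared and not groups of animals, and the p-values measure the spread between these 2 libraries only. The p-values and standard errors come from joint fits over the sums of all classes, or of classes and states. Their spread is therefore pooled over these groups and shared in part between genes, not taken from the compared groups alone. The study numbers the embryos behind its E14.5 single-cell data, but which of them gave each of these libraries is not stated.

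Replication-dependent histone genes supply the core histones H2A, H2B, H3 and H4, around which DNA is wrapped, and the linker histone H1. Their mRNAs accumulate while DNA is copied in S phase and typically end in a conserved stem-loop, bound by SLBP, in place of a poly(A) tail. Some members also give polyadenylated transcripts, in particular in differentiating cells. The kit used here primes on poly(A), so the values describe polyadenylated RNA, or RNA primed at internal runs of A, and not the whole histone mRNA pool; which of these was captured was not tested.

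The histone 3′ stem-loop was found in the annotated transcripts of 45 of the 62 genes, in 8 distinct forms, of which the commonest was shared by 26 genes. The sequences below are shown because they belong to genes that behaved differently in these cells. The 6-base arms of the stem are in capitals, and the 4-base loop and 5 bases on either side are in lower case, from the transcripts of the reference annotation (GENCODE).
Hist3h2ba: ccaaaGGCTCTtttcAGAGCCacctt
Hist3h2a: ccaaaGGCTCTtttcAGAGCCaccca
Hist1h2bc: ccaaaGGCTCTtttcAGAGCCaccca
Hist1h2ae: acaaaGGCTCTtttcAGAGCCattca
Hist1h3c: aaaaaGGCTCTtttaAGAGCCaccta
Hist1h4d: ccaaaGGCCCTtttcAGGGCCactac
Hist1h4i: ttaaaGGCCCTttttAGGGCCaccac
Hist3h2ba, Hist3h2a, Hist1h2bc and Hist1h2ae shared the commonest stem and loop. Hist1h3c and both H4 genes each carried another form. In 25 of the 45 genes an annotated transcript ran more than 100 bases past the stem-loop, by 171 bases in Hist3h2ba, 1643 in Hist3h2a and 373 in Hist1h2bc, against 74 in Hist1h3c and 3 in Hist1h2ap. A poly(A) signal lay within 45 bases of an annotated 3′ end in 19 genes, including Hist3h2ba, Hist3h2a, Hist1h2bc, Hist1h2ae, Hist1h1c and Hist1h4i. No stem-loop was found in the annotated transcripts of Hist1h1b and Hist1h1a, which were 743 and 741 bases long. Other genes without one had shorter annotations, such as 312 bases in Hist1h4k and 381 in Hist1h2bn. A stem-loop or poly(A) signal past an annotated end could not be found, so these counts describe the annotation.

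Promoter windows of RefSeq, which span 250 bases before to 50 bases after a gene's start on GRCm38.p6, were at hand for 57 of the 62 genes, as 58 windows. Motifs were searched on both strands, and overlaps between motifs were allowed. The octamer ATTTGCAT lay in 12 of 58 histone windows (20.7%), all of them H2A or H2B genes (6 of 16 and 6 of 15 windows), against 1.74% of all 32851 windows. AAACACA lay in 5 of 6 H1 windows (83.3%) and in 7.18% of all windows. TATAAA lay in 32 of 58 windows (55.2%), against 13.6% of all. CCAAT lay in 50 of 58 (86.2%), against 37.4% of all, and was in every H1, H2A, H2B and H3 window but in only 3 of 11 H4 windows. The 150 bases before the start are shown for 4 genes whose levels differed between cells, with these motifs in capitals on either strand.
Hist1h1b (chr13:21780626-21780775, minus strand): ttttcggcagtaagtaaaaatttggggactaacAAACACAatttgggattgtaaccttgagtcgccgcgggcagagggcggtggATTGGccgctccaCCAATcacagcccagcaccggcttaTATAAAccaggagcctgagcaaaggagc
Hist1h2ae (chr13:23571221-23571370, minus strand): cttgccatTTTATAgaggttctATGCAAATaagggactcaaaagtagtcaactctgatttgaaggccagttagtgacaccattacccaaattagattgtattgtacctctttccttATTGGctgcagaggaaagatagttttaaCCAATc
Hist3h2a (chr11:58954535-58954684, plus strand): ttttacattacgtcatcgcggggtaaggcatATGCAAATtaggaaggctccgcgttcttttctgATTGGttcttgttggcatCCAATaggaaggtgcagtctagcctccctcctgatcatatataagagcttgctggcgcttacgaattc
Hist3h2ba (chr11:58948761-58948910, plus strand): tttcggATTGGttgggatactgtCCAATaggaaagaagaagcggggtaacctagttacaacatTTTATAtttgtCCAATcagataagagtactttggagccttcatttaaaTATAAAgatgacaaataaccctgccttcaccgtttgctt
Hist1h2ae and Hist3h2a both carried the octamer, and their levels across cell classes ran in opposite directions, as described below. Hist3h2ba carried no octamer in its whole window.

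Filters kept 1199 cells in replicate 2 and 1923 in replicate 4, at a median depth of 30810 and 22826 UMIs, with 1 barcode in common. The 62 genes gave 36689 UMIs in replicate 2 (0.0972% of all UMIs) and 36486 in replicate 4 (0.0802%). Classes were named from marker genes. Sox2, a progenitor factor, stood at 240 ± 5.21 CPM (UMIs of the gene scaled to 1000000 UMIs of the class, mean ± SD, n = 2 libraries) in radial glial cell (RGC)-like cells and at 2.21 ± 0.565 in excitatory neuron-like cells. Interneuron-like cells of the medial ganglionic eminence (MGE) held 229 ± 2.65 CPM, so Sox2 alone did not set RGC-like cells apart from them. Eomes, which marks intermediate progenitor cells (IPCs), stood at 476 ± 82.5 in IPC-like cells. The IPC-like class also expressed the neuronal gene Neurod6 at 570 ± 50.8 CPM, against 779 ± 177 in excitatory neuron-like cells, and 1 of its clusters, of 320 cells, led with neuronal genes. No histone gene, and no gene of the 3 lists of histone-related factors described at the end (among them Slbp, Nasp, Chaf1b and Cenpa), was used for clustering or for cell cycle scores.

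The captured UMIs were concentrated in a few genes. Hist3h2ba, Hist1h1b, Hist3h2a, Hist1h2ae, Hist1h1e and Hist1h4d together held 69.5% of the UMIs of all 62, and the Hist3 pair alone held 38.1%. Hist3h2ba, an H2B gene, gave 9812 UMIs in replicate 2 and 10549 in replicate 4. Hist1h1b, a linker histone gene, gave 3442 and 4571. Of the 62 genes, 40 had at least 100 UMIs over both libraries and 22 had fewer. UMIs mark 3′ ends and were not divided by length, so this order describes captured molecules and not amounts of mRNA. In 23 genes, 11 of them with at least 100 UMIs, more than 50% of the 90-base windows of the transcripts also occurred in another histone gene, for example 92.4% of Hist1h2ap with Hist1h2ao, so reads may have been split between them or dropped. Hist3h2ba and Hist1h1b shared no window, and Hist3h2a shared 0.0972%. On GRCm38.p6, Hist3h2ba (ENSMUSG00000056895) is annotated at chr11:58948911-58949372, Hist3h2a (ENSMUSG00000078851) at chr11:58954685-58955192, Hist1h1b (ENSMUSG00000058773) at chr13:21779832-21780625 and Hist1h2ae (ENSMUSG00000069272) at chr13:23570663-23571220.

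Across cell classes the histone genes did not follow a single pattern. Most of the members with enough counts were high in RGC-like cells, intermediate in IPC-like cells and low in excitatory neuron-like cells, whereas the Hist3 pair was lowest in RGC-like cells of these 3 classes. Without the pair, the other 60 genes summed to 1724 CPM in replicate 2 and 1145 in replicate 4 in RGC-like cells, to 433 and 379 in IPC-like cells, and to 141 and 112 in excitatory neuron-like cells. The 3 ranges did not overlap. The Hist3 pair summed to 118 and 104 CPM in RGC-like cells, 422 and 383 in IPC-like cells and 495 and 458 in excitatory neuron-like cells, again without overlap. The IPC-like value depended on the cluster of 320 of 685 cells in which neuronal genes led: without it, the pair summed to 271 and 232 CPM, between RGC-like cells and neurons, and the other 60 genes to 588 and 612. The pair made up 7.37% ± 1.38 (SD, n = 2) of histone UMIs in RGC-like cells and 79.1% ± 1.77 in excitatory neuron-like cells. In IPC-like cells it made up 49.8% ± 0.623 with the cluster and 29.5% ± 2.87 without it.

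The families differed in how far they followed this split. The 6 H1 genes summed to 650 and 530 CPM in RGC-like cells, 132 and 156 in IPC-like cells and 33.0 and 26.5 in excitatory neuron-like cells, and the 12 H3 genes to 166 and 93.4, 60.5 and 36.4, and 9.50 and 8.25. In both families the 3 classes did not overlap. The sum of the 16 H2B genes ran the other way, with 238 and 171 CPM in RGC-like cells, 392 and 350 in IPC-like cells and 392 and 367 in excitatory neuron-like cells, but 1 gene, Hist3h2ba, set that direction. The other 15 H2B genes summed to 149 and 92.1 CPM in RGC-like, 52.7 and 42.9 in IPC-like and 49.1 and 42.5 in excitatory neuron-like cells. The 9 genes of the Hist2 cluster gave only 49.9 and 36.2 CPM in RGC-like cells and 7.80 and 7.32 in excitatory neuron-like cells, and the single Hist4 gene 2.59 and 1.62 against 1.27 and 1.51.

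**Figure D1:**
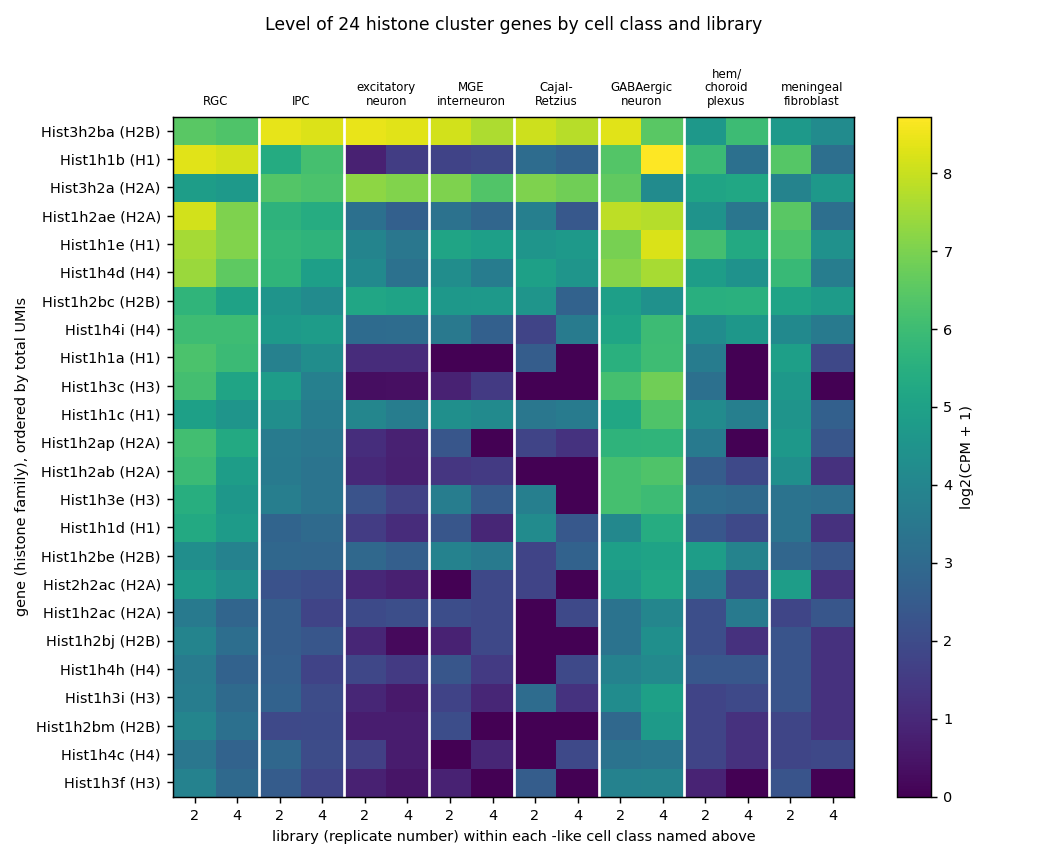
Level of 24 histone cluster genes, as log2(CPM + 1) in colour, in each library (columns 2 and 4) of 8 cell classes. Hist3h2ba and Hist3h2a are bright in both libraries of IPC-like, excitatory neuron-like, MGE interneuron-like and Cajal-Retzius-like cells and in replicate 2 of GABAergic neuron-like cells (322 and 96.8 CPM), while Hist1h2ae is brightest in RGC-like cells and in GABAergic neuron-like cells, of which 8 of 23 in replicate 2 and 48 of 53 in replicate 4 were in S-like or G2/M-like states.

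Between RGC-like and excitatory neuron-like cells, 31 histone genes had enough counts to be tested. Of these, 27 were higher and 2 lower in RGC-like cells at an adjusted p below 0.05 (edgeR quasi-likelihood test on UMI sums per library and class, Benjamini-Hochberg adjustment over all 12786 genes tested), where 53.8% of all tested genes were called. The median log2 fold change of the 31 was 3.48, against -0.03 for all genes. By family, 4 of 5 H1, 8 of 9 H2A, 6 of 8 H2B, 5 of 5 H3 and 4 of 4 H4 genes were higher. The other 31 members had too few counts to be tested, so these shares do not describe all 62. The filter took a gene if enough sums of any class reached its limit, so a gene could enter through the class where it was high, and the count and median describe only the genes that passed.

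Among the H1 genes, which bind the linker DNA between nucleosomes, Hist1h1b stood at 321 CPM in replicate 2 and 286 in replicate 4 in RGC-like cells, at 40.0 and 69.8 in IPC-like cells and at 0.726 and 1.97 in excitatory neuron-like cells. Every RGC-like value was above every IPC-like one, and these were above the neuronal ones. The log2 fold change of RGC-like over excitatory neuron-like cells was 7.53 ± 0.95 (SE, n = 2, adjusted p = 2.06e-05). Hist1h1a fell in the same order, with a log2 fold change of 5.61 ± 0.57 (adjusted p = 5.42e-06), as did Hist1h1d (4.13 ± 0.42, adjusted p = 3.39e-06) and Hist1h1e (3.48 ± 0.44, adjusted p = 2.07e-05). Hist1h1c was the exception among the tested H1 genes: it stood at 30.3 and 22.2 CPM in RGC-like cells and at 15 and 12.1 in excitatory neuron-like cells, and its log2 difference of 0.71 ± 0.32 did not pass (adjusted p = 0.0788).

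Among the core histone genes, the H2A gene Hist1h2ae stood at 276 and 131 CPM in RGC-like cells, 48.6 and 41.2 in IPC-like cells and 8.23 and 5.46 in excitatory neuron-like cells. Its libraries differed in RGC-like cells but did not overlap between classes, and the log2 fold change of RGC-like over excitatory neuron-like cells was 4.65 ± 0.58 (adjusted p = 1.78e-05). The H3 gene Hist1h3c was close to absent from neurons, at 0.242 and 0.290 CPM, and stood at 67.7 and 33.5 in RGC-like cells (log2 fold change 7.20 ± 0.82, adjusted p = 1.38e-05). Other large differences were those of the H2A genes Hist1h2ap (5.46 ± 0.56, adjusted p = 3.08e-06) and Hist1h2af. The latter had 1 UMI in each library of excitatory neuron-like cells and 68 and 71 in RGC-like cells, so that the ratio was 119.8 (95% counting interval 32.5 to 999). The H4 genes Hist1h4d and Hist1h4i rose less, by a log2 fold change of 3.14 ± 0.45 (adjusted p = 6.67e-05) and 2.87 ± 0.24 (adjusted p = 6.40e-07).

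The Hist3 genes ran the other way. Hist3h2ba stood at 89.6 and 79.3 CPM in RGC-like cells, 339 and 307 in IPC-like cells, 343 and 324 in excitatory neuron-like cells and 279 and 200 in MGE interneuron-like cells. With all IPC-like clusters, IPC-like and excitatory neuron-like values differed by less than the spread of the test (log2 difference -0.21 ± 0.40, adjusted p = 0.749). Without the neuronal IPC-like cluster the difference was -0.996 ± 0.41 and did not pass (adjusted p = 0.0746). The values of both classes lay well above the RGC-like values (RGC-like over excitatory neuron-like -2.22 ± 0.42, adjusted p = 5.87e-04). Hist3h2a, the H2A gene of the same cluster, rose further from IPC-like cells, at 82.97 and 76.1 CPM, to neurons, at 152 and 134. The RGC-like values of Hist3h2a were 28.2 and 25.1, with a log2 fold change to excitatory neuron-like cells of -2.67 ± 0.39 (adjusted p = 7.49e-05). The IPC-like to neuron difference was -1.002 ± 0.37 and did not pass (adjusted p = 0.0533), but passed without that cluster (-1.53 ± 0.38, adjusted p = 7.13e-03).

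Hist1h2bc, an H2B gene of the Hist1 cluster, followed neither pattern. It stood at 51.8 and 31.6 CPM in RGC-like cells, 21.8 and 17.6 in IPC-like cells and 34.8 and 32.4 in excitatory neuron-like cells. The RGC-like and neuronal ranges overlapped (log2 difference 0.06 ± 0.24, adjusted p = 0.848), and the IPC-like level was lower than both (IPC-like over excitatory neuron-like -0.93 ± 0.25, adjusted p = 0.0122). The IPC-like to neuron difference passed in 8 of 12 settings, and the RGC-like to IPC-like one in 10 of 12. The histone genes most abundant in excitatory neuron-like cells were Hist3h2ba (334 ± 13.6 CPM, SD, n = 2), Hist3h2a (143 ± 12.7), Hist1h2bc (33.6 ± 1.72), Hist1h1c (13.5 ± 2.06) and Hist1h4d (12.6 ± 5.56). The levels of the last 2, and that of the next gene, Hist1h1e (12.1 ± 2.95), did not differ beyond their spread.

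**Figure D2:**
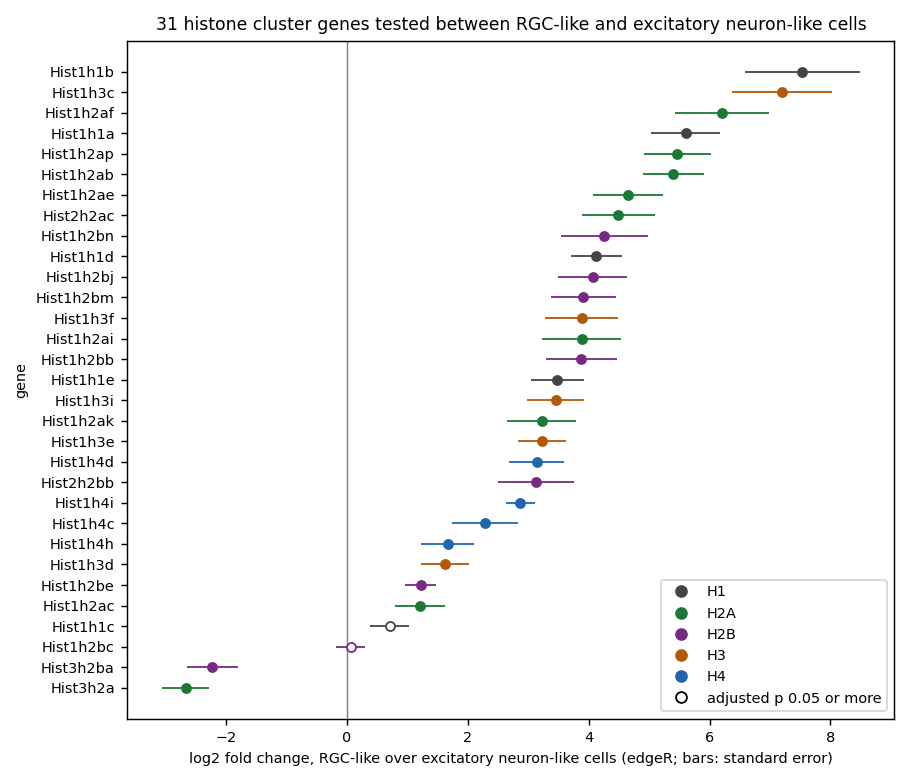
Log2 fold change of RGC-like over excitatory neuron-like cells for the 31 histone genes tested, with bars of 1 standard error, coloured by histone family; open points did not pass an adjusted p of 0.05. Hist3h2a (-2.67) and Hist3h2ba (-2.22) lie left of 0, Hist1h2bc and Hist1h1c lie near it, and Hist1h1b lies farthest right at 7.53.

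IPC-like cells lay between these classes for most members. Against excitatory neuron-like cells, which also served in the comparison above, 20 of 31 histone genes were higher and 1 lower (31.6% of all genes called), with a median log2 fold change of 1.92 against -0.04 for all genes. Hist1h3c led with 5.94 ± 0.84 (adjusted p = 2.05e-04), followed by Hist1h1b at 5.16 ± 0.90 (adjusted p = 6.76e-04), and the 1 lower gene was Hist1h2bc. Between RGC-like and IPC-like cells, 18 were higher and 2 lower in RGC-like cells (37.1% of all genes called). Hist2h2ac (2.66 ± 0.54, adjusted p = 1.86e-03), Hist1h1b (2.37 ± 0.70, adjusted p = 0.0184) and Hist1h1d (2.20 ± 0.38, adjusted p = 6.11e-04) were furthest above, and Hist3h2ba (-2.02 ± 0.42, adjusted p = 2.17e-03) and Hist3h2a (-1.66 ± 0.38, adjusted p = 4.22e-03) below. Without the IPC-like cluster led by neuronal genes, the differences of these 2 genes were -1.23 ± 0.41 (adjusted p = 0.0436) and -1.14 ± 0.39 (adjusted p = 0.0483). The count rested on how the IPC-like class was drawn. Without that cluster 9 of 31 genes were called, a share of 29% against 26.2% of all genes. At Leiden resolution 0.5 only 4 of 31 were called, or 12.9% against 24.8%. The excess over all genes seen here (64.5% against 37.1%) was thus small in the first setting and absent in the second. Of the 20 called genes, 3 stayed called in every alternative in which they were tested, namely Hist2h2ac, Hist1h1d and Hist3h2ba, whereas the call of Hist1h1b was lost in 5 of 11.

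MGE interneuron-like cells, which are neurons born in the medial ganglionic eminence, had histone levels nearer to those of excitatory neuron-like than of RGC-like cells. Their 60 genes without the Hist3 pair summed to 195 and 148 CPM, above both values of excitatory neuron-like cells (141 and 112). Of 31 genes tested against excitatory neuron-like cells, edgeR called 0 (18.8% of all genes called), 3 had an unadjusted p below 0.05, and DESeq2 called 1. The median log2 difference of the 31 was 0.52, against -0.11 for all genes, and 22 of them were above 0. Hist3h2ba differed by -0.58 ± 0.41 (adjusted p = 0.390) and Hist3h2a by -0.53 ± 0.39 (adjusted p = 0.398) on the log2 scale, which does not show that the classes were alike.

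The share of cells with at least 1 UMI gave the same order at equal depth. Hist1h1b was found in 49.8% and 53.6% of RGC-like cells, 16.8% and 15.9% of IPC-like cells and 2.64% and 5.12% of excitatory neuron-like cells in replicates 2 and 4. After each cell was thinned to 5000 UMIs, these were 33.2% and 35.8%, 6.56% and 7.91%, and 0.222% and 1.59%. Median depth was 32611 and 26220 UMIs in RGC-like cells and 35481 and 25631 in excitatory neuron-like cells, and as the neurons do not divide, the share in them was read as an upper limit of background for this gene. Hist3h2ba was found in 37.0% and 30.2% of thinned RGC-like cells, 73.8% and 71.2% of IPC-like cells and 77.1% and 75.0% of excitatory neuron-like cells. Without thinning these were 85.0% and 72.5%, 92.8% and 91.0%, and 96.9% and 94.0%. No class here is known to lack Hist3h2ba, so its background could not be set. In meningeal fibroblast-like cells the share of Hist3h2ba was 16.7% and 7.14% of 18 and 28 thinned cells. It was 44.4% and 16.7% without thinning, at median depths of 41372 and 26695 UMIs. With and without thinning, these lay below the matching shares of this gene given above. The part of free RNA was not tested. Cells under 5000 UMIs, which were left out of the thinned shares, numbered 9 and 21 RGC-like, 6 and 18 IPC-like and 5 and 16 excitatory neuron-like cells.

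Cells were next assigned to cell cycle states from the mean expression of S phase and G2/M phase gene lists. S-like cells made up 44.0% ± 2.08 (SD, n = 2) of RGC-like cells and 10.7% ± 0.159 of IPC-like cells. Cells with neither score above 0 are called G1-like, a state that also takes in cells outside the cycle and held 99.7% ± 0.173 of excitatory neuron-like cells. In RGC-like cells, the 60 genes without the Hist3 pair summed to 1961 and 1024 CPM in the S-like state, 2185 and 1597 in the G2/M-like state and 320 and 175 in the G1-like state. Both cycling states lay above the G1-like state. Their ranges overlapped each other, although within each library the G2/M-like sum was above the S-like sum. In IPC-like cells the sums were 730 and 1105, 2031 and 1375, and 165 and 103 CPM, and here the S-like values lay below the G2/M-like values.

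Between S-like and G1-like RGC-like cells, 47 genes could be tested, of which 21 were higher and 3 lower (18.0% of all genes called). Their median log2 fold change was 2.21 against -0.03 for all genes, and 2.15 with the 3 genes that had 0 UMIs in the G1-like cells set to their bound. As above, genes could pass the filter through the states where they were high, and these values describe only those that passed. Hist1h1b rose from 4.20 and 7.65 CPM in the G1-like state to 419 and 270 in the S-like state (log2 fold change 5.89 ± 0.53, adjusted p = 1.06e-05). Hist1h1a rose from 1.80 and 1.91 to 113 and 70.1 (5.62 ± 0.42, adjusted p = 2.98e-06), and Hist1h2ae from 7.21 and 7.02 to 334 and 114 (4.99 ± 0.65, adjusted p = 2.05e-04). By family, 4 of 5 H1, 6 of 12 H2A, 4 of 15 H2B, 5 of 8 H3 and 2 of 7 H4 genes were higher. In 8 of the called genes the G1-like cells held 3 or fewer UMIs. Hist1h2af had 0 there and 32 and 21 UMIs in S-like cells, at least 6.75-fold higher than a floor of 3 UMIs over both libraries, and Hist1h2ap had 0 and 1 there and 312 and 201 UMIs in S-like cells, so that the ratio was 196 (95% counting interval 35.0 to 7752). The 3 genes that fell were Hist1h2bc (-1.71 ± 0.36, adjusted p = 6.07e-03), Hist3h2a (-1.14 ± 0.23, adjusted p = 4.90e-03) and Hist3h2ba (-0.70 ± 0.18, adjusted p = 0.0192).

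In IPC-like cells, 26 of 47 genes were higher and 2 lower in the S-like state (23.6% of all genes called), with a median of 2.60 against 0 for all genes. Hist1h1b rose from 3.94 and 3.66 CPM to 98.3 and 250 (5.51 ± 0.48, adjusted p = 4.98e-06), and Hist1h1a by 4.97 ± 0.35 (adjusted p = 8.81e-07). By family, 4 of 5 H1, 9 of 12 H2A, 5 of 15 H2B, 6 of 8 H3 and 2 of 7 H4 genes were higher in this class. In 5 of the called genes the G1-like cells held 3 or fewer UMIs. Both Hist3 genes fell, Hist3h2ba from 379 and 359 CPM in the G1-like state to 99.4 and 79.8 in the S-like state (-2.08 ± 0.19, adjusted p = 7.06e-06; -1.37 without the cluster led by neuronal genes) and Hist3h2a from 98.4 and 93.0 to 10.9 and 16.3 (-2.81 ± 0.26, adjusted p = 9.35e-06). The test of the difference between the classes called 2 of 47 genes, a share no larger than that of all genes (4.82% called). These were Hist3h2ba, with an interaction of 1.38 ± 0.26 (adjusted p = 0.0116), and Hist3h2a, with 1.67 ± 0.37 (adjusted p = 0.0232), and the calls were not stable. Neither passed at other cluster resolutions, with other limits on genes or mitochondrial UMIs, or once the IPC-like cluster led by neuronal genes was left out, which lowered the mean G1-like sum of the 62 genes in IPC-like cells from 598 to 432 CPM.

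**Figure D3:**
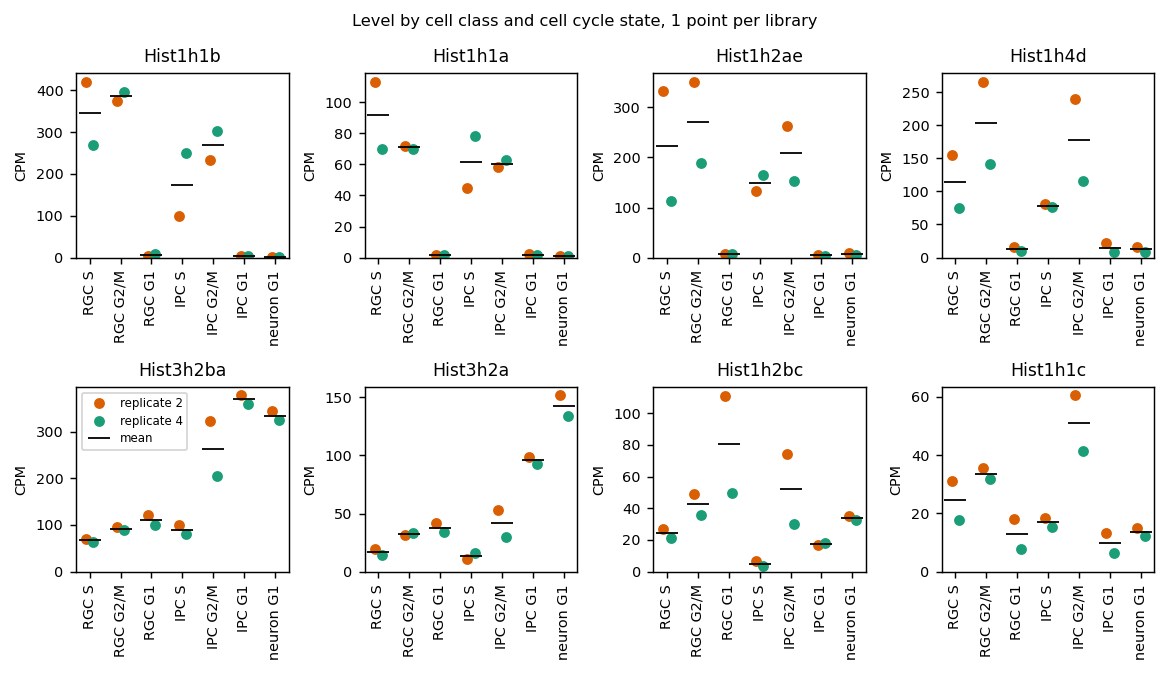
CPM of 8 histone genes in the S-like, G2/M-like and G1-like cells of the RGC-like and IPC-like classes and in G1-like excitatory neuron-like cells, with 1 point per library and a line at the mean. Hist1h1b, Hist1h1a, Hist1h2ae and Hist1h4d are near 0 in all 3 G1-like groups relative to their cycling levels, while Hist3h2ba and Hist3h2a are highest in G1-like IPC-like cells and neurons.

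The S-like and G2/M-like states were then compared. In RGC-like cells 1 of 47 genes was called, Hist3h2a, which was lower in S-like cells (-0.90 ± 0.21, adjusted p = 0.0302, 5.01% of all genes called). The median log2 difference of the 47 was -0.40, against 0.03 for all genes, and 4 of them were above 0. With the library as a block 2 genes were called (6.75% of all genes), and with doublets kept, with a lower limit of 500 genes or with Leiden resolution 0.5 none was. Hist1h1b stood at 419 and 270 CPM in S-like and at 375 and 395 in G2/M-like RGC-like cells, which overlapped. In IPC-like cells 5 of 47 genes were lower in the S-like state (13.0% of all genes called), and 10 with the library as a block (13.9% of all genes). The median of the 47 was -1.21, against 0.02 for all genes, and 1 of them was above 0. The 5 were Hist1h2bc (6.55 and 3.43 CPM against 74.2 and 29.8, log2 fold change -3.39 ± 0.67, adjusted p = 5.46e-03), Hist2h2bb (-2.21 ± 0.65), Hist1h1c (-1.61 ± 0.47), Hist3h2ba (-1.59 ± 0.19) and Hist3h2a (-1.56 ± 0.32). The calls of Hist2h2bb and Hist1h1c were each lost in 5 alternatives, and Hist3h2a was called in 11 of 14 settings, the main one included.

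The angle of each cell in the plane of S score (x axis) and G2/M score (y axis) gave a finer order. In RGC-like cells the 60 genes without the Hist3 pair summed to 3062 and 1825 CPM between 0 and 45 degrees (54 and 86 cells), where the S score was the larger of 2 positive scores. Between 45 and 90 degrees (60 and 126 cells), where the G2/M score was the larger, they summed to 2771 and 1809 CPM. In the next bin, from 90 to 135 degrees (20 and 30 cells), where the S score was below 0, they fell to 484 and 419 CPM. Between 315 and 360 degrees (39 and 81 cells), where only the S score was positive, the sum was 313 and 257 CPM. S-like and G2/M-like cells thus each held both high and low histone levels. Hist1h1b stood at 497 and 462 CPM between 45 and 90 degrees and at 28.5 and 21.7 in the following bin.

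Hist1h2bc and Hist3h2ba reached their highest levels at later angles than the sum of the 60 genes and than Hist1h1b. Hist1h2bc stood at 11.5 and 19.3 CPM in RGC-like cells between 0 and 45 degrees, at 58.3 and 103 between 90 and 135, and at 204 and 120 between 180 and 225 (20 and 11 cells). Hist3h2ba went from 54.1 and 63.2 to 107 and 96.8 and then to 140 and 120 CPM in the same bins. Both libraries showed this order, although the last bin of replicate 4 held fewer than 20 cells, and bins of 135 to 180 degrees held only 3 and 1 cells. In IPC-like cells Hist1h2bc was highest between 90 and 180 degrees, and the bins there held fewer than 20 cells each.

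**Figure D4:**
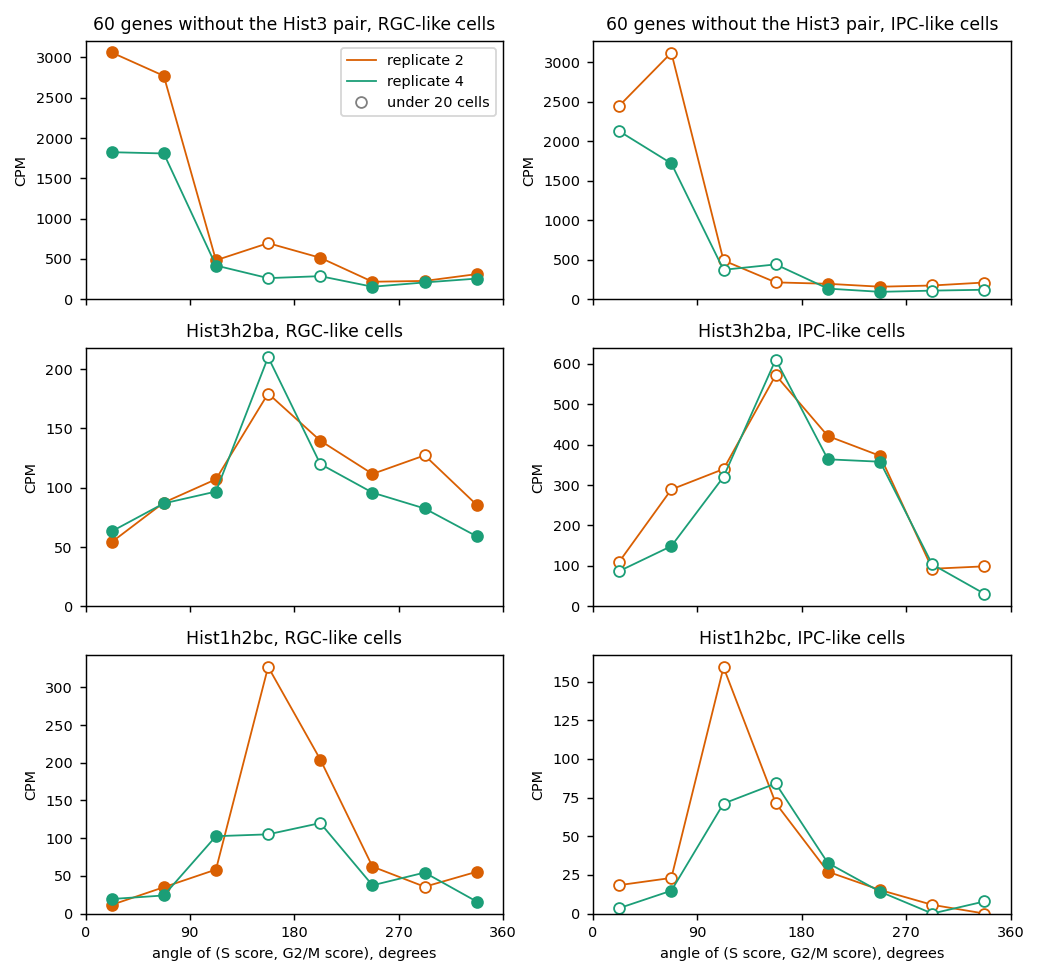
CPM against the angle of the S and G2/M scores in bins of 45 degrees, for the 60 genes without the Hist3 pair (top), Hist3h2ba (middle) and Hist1h2bc (bottom) in RGC-like (left) and IPC-like cells (right); open points stand for under 20 cells. In RGC-like cells the 60 genes sum to 1809 to 3062 CPM up to 90 degrees and to 156 to 697 CPM beyond it, where Hist1h2bc and Hist3h2ba are at their highest.

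Within the S-like state, RGC-like and IPC-like cells differed in 2 of 47 genes, both higher in RGC-like cells (18.1% of all genes called). These were Hist1h2bc (2.32 ± 0.67, adjusted p = 0.0309) and Hist2h2ac (1.92 ± 0.48, adjusted p = 0.0154), and 4 were called with the library as a block (19.6% of all genes). Within the G1-like state, 6 genes were higher and 2 lower in RGC-like than in excitatory neuron-like cells (47.7% of all genes called). Of the 6, 4 rested on few molecules. Hist1h2ag had 5 and 4 UMIs against 1 and 1, Hist1h3b 1 and 1 against 0 and 0, Hist1h2bm 6 and 3 against 10 and 11, and Hist1h2bp 3 and 2 against 2 and 4. The call of Hist1h2bp (2.75 ± 0.98, adjusted p = 0.0353) was lost in 4 of 12 alternatives and turned to -3.21 with doublets kept, and those of Hist1h2bm and Hist1h3b were lost in 4 and 3 of 12. Hist1h4i (36.6 and 20.4 CPM against 7.26 and 7.23, log2 fold change 1.77 ± 0.35, adjusted p = 1.20e-03) and Hist1h2bc (111 and 49.8 against 34.8 and 32.3, 1.05 ± 0.33, adjusted p = 0.0204) were better covered. Hist3h2a (-2.13 ± 0.20, adjusted p = 2.50e-06) and Hist3h2ba (-1.81 ± 0.18, adjusted p = 3.98e-06) were the 2 lower genes, so the difference of the Hist3 pair between these classes was also present among G1-like cells. Between G1-like IPC-like cells and neurons 3 genes were higher and 2 lower (34.1% of all genes called). The lower ones were Hist1h2bc (-1.11 ± 0.33) and Hist3h2a (-0.75 ± 0.16), whereas Hist3h2ba did not differ detectably (-0.02 ± 0.16, adjusted p = 0.935). Without the IPC-like cluster led by neuronal genes, Hist3h2ba was lower in G1-like IPC-like cells than in neurons (-0.81 ± 0.14, adjusted p = 5.08e-04).

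The levels were also set against the annotated 3′ ends. The 19 genes with a poly(A) signal near an annotated end summed to 554 CPM (mean of 2 libraries) in excitatory neuron-like and 499 in RGC-like cells, while the other 43 summed to 48.7 and 1047. Among the 43 are genes with short annotated transcripts, such as Hist1h4k, in which a signal past the annotated end could not be found. The split may therefore follow the annotation in part. The median log2 fold change of RGC-like over excitatory neuron-like cells was 1.42 in the 10 tested genes with the signal and 3.91 in the 21 without, values given as a description and with no test. The Hist3 pair belonged to the first group and made up most of its neuronal sum. Without the pair, the other 17 genes with the signal summed to 77.9 CPM in excitatory neuron-like and 388 in RGC-like cells, the same direction as the genes without the signal. Across all 62 genes, Spearman's rho between total UMIs and the largest number of A in any 10 transcript bases was 0.323, that with the longest annotated transcript 0.350, and that with the share of windows found in another gene -0.424. With the presence of a poly(A) signal near an annotated end it was 0.110. These correlations are across genes of the same libraries, and genes are not independent replicates.

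The machinery that makes and handles histone mRNA and protein was examined from 3 gene lists. SLBP binds the stem-loop. Slbp stood at 127 and 129 CPM in RGC-like cells, 43.1 and 50.8 in IPC-like cells and 20.9 and 19.6 in excitatory neuron-like cells, with no overlap (RGC-like over excitatory neuron-like 2.42 ± 0.21, adjusted p = 9.85e-07). In RGC-like cells it stood at 200 and 189 CPM in the S-like, 92.9 and 95.5 in the G2/M-like and 34.2 and 45.9 in the G1-like state. It was thus higher in S-like than in G2/M-like cells (1.08 ± 0.16, adjusted p = 1.60e-03), unlike the histone genes, none of which was called higher there. Of 19 tested factors of histone mRNA synthesis, processing and decay, 7 were higher and 2 lower in RGC-like than in excitatory neuron-like cells, against 53.8% of all genes called in either direction, so the list did not stand out by its count. They included Pou2f1 (0.97), which encodes an octamer-binding factor, Casp8ap2 (0.80) and Npat (0.71), a coactivator of histone transcription, and on the lower side Lsm11 (-0.71) and Lsm10 (-0.61), which belong to the U7 snRNP that cleaves histone pre-mRNA; both calls were lost in 5 alternatives. Between S-like and G1-like RGC-like cells 5 of 20 were higher and 1 lower (18.0% of all genes called), and Lsm11 was among the higher ones (1.45). Lsm11 was lowest in IPC-like cells, at -3.02 against excitatory neuron-like cells (adjusted p = 5.49e-06).

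Of 17 histone chaperones and assembly factors, 11 were higher and none lower in RGC-like than in excitatory neuron-like cells, where 53.8% of all genes were called. Asf1b (3.75), Chaf1a (3.17), Hat1 (2.84) and Chaf1b (2.57) changed most. In the S-like against G1-like comparison of RGC-like cells 12 were higher and none lower (18.0% of all genes called), again led by Asf1b (5.50), Chaf1b (3.71), Chaf1a (3.58) and Hat1 (2.19). Variant histones, most of which are made throughout the cell cycle from polyadenylated mRNA, were split. Of 11 tested, where 53.8% of all genes were called, 7 were higher in RGC-like cells, among them Cenpa (6.20), the histone of centromeres, H2afx (2.65) and H2afz (2.58), and 3 were lower, namely H2afy2 (-0.61), H3f3a (-0.47) and H3f3b (-0.45), of which the last 2 were lost in 5 and 4 of 11 alternatives. In RGC-like cells, 4 were lower in the S-like than in the G2/M-like state (5.01% of all genes called), with Cenpa at -3.72 and H2afx at -1.76, and none was higher.

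The libraries themselves differed in histone levels. In RGC-like cells, 54 histone genes had at least 20 UMIs over both libraries, and 29 of them stood at least 1.5-fold higher in replicate 2 than in replicate 4, against 6.74% of all genes. None stood 1.5-fold higher in replicate 4. The median ratio was 1.62 for the histone genes and 0.998 for all genes. The families were affected unequally: none of 5 H1 genes passed 1.5-fold (ratios of 1.12 to 1.44), whereas 9 of 13 H2A, 9 of 15 H2B, 5 of 10 H3 and 6 of 11 H4 genes did. Hist1h2ae had a ratio of 2.12 (95% counting interval 1.98 to 2.26), Hist1h3c of 2.02 (1.77 to 2.31) and Hist1h4d of 1.80 (1.66 to 1.95), against 1.12 (1.07 to 1.18) for Hist1h1b, 1.13 (1.02 to 1.25) for Hist3h2ba and 0.993 (0.886 to 1.11) for Hist1h4i. As a share of all histone UMIs, Hist1h1b held 9.38% in replicate 2 and 12.5% in replicate 4, Hist1h2ae 8.67% and 6.23%, and Hist3h2ba 26.7% and 28.9%.

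Fewer genes passed 1.5-fold in the other classes for which the ratios were computed. In IPC-like cells 12 of 37 genes were 1.5-fold higher in replicate 2 (5.99% of all genes) and 1 in replicate 4, and in excitatory neuron-like cells 8 of 30 (5.12% of all genes) and 2. In IPC-like cells Hist1h1b had a ratio of 0.573 (0.499 to 0.656). In meningeal fibroblast-like cells, which numbered 18 and 30, the 62 genes summed to 649 CPM in replicate 2 and 181 in replicate 4. In S-like RGC-like cells Hist1h2ae stood at 334 against 114 CPM. Beside this, the share of S-like cells among RGC-like cells was 42.5% in replicate 2 and 45.5% in replicate 4, Mki67 stood at 284 and 226 CPM and Pcna at 260 and 235 in RGC-like cells, and median depth was higher in replicate 2. Their part in the difference was not tested, and the intervals cover counting error only.

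**Figure D5:**
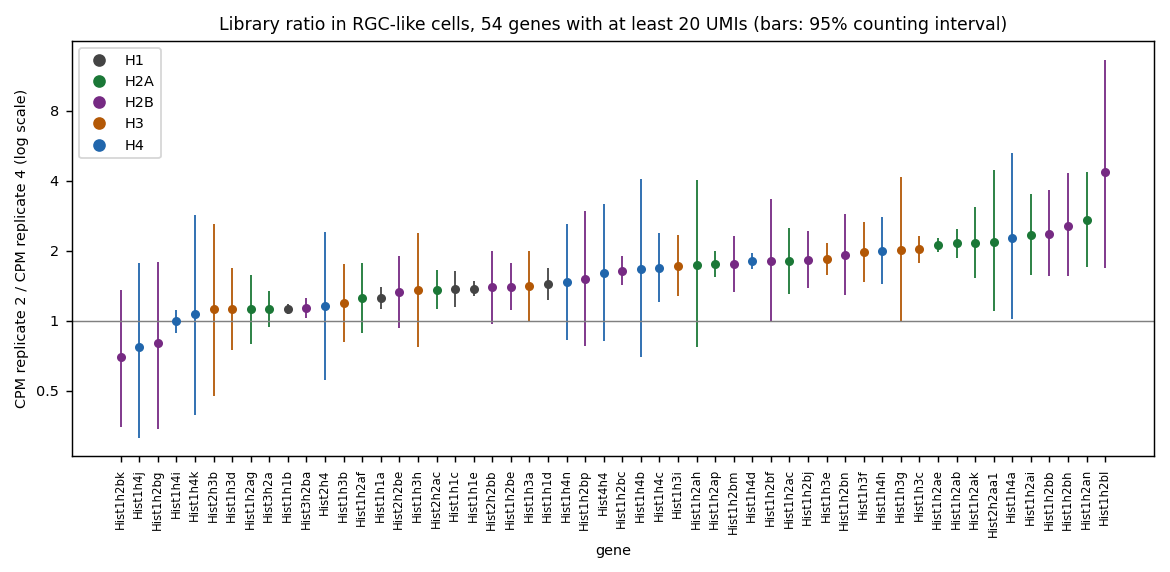
Ratio of CPM in replicate 2 to replicate 4 in RGC-like cells for the 54 histone genes with at least 20 UMIs, on a log axis, ordered by ratio and coloured by family; bars are 95% counting intervals. The H1 genes lie at 1.12 to 1.44, and Hist1h2ae, Hist1h2ab and Hist1h3c lie above 2.

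Among GABAergic neuron-like cells outside the interneuron classes, Top2a, a cell cycle gene, led 1 sub-cluster (9 of 23 cells in replicate 2 and 47 of 53 in replicate 4). Here the 60 genes without the Hist3 pair summed to 2499 and 2273 CPM and the Hist3 pair to 74.7 and 89.2. Its histone profile thus had a high sum and a low Hist3 share, as in S-like and G2/M-like RGC-like cells. In Cajal-Retzius-like cells, a neuron type of the marginal zone, the 60 genes summed to 169 and 120 CPM and the pair to 396 and 331. In meningeal fibroblast-like cells the pair stood at 39.8 and 41.6 CPM, below its level in RGC-like cells.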

How the data were processed

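Gene-level UMI counts of 2 libraries were analysed. Per the labels and the study's methods, the authors dissociated dorsal telencephalon at embryonic day 14.5 and used a 10x Genomics 3′ v3.1 kit. The submitters' processing notes name Cell Ranger 7.0.0 and mm10. The deposited values are raw counts per gene and barcode, without normalization. Whether intronic reads were counted is not given in the sources used here.

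Barcodes needed at least 1000 genes and no more than 10% mitochondrial UMIs, and Scrublet calls (12 and 48 barcodes) were removed, which left 3122 cells. In scanpy 1.11.5 (Python 3.11.15), 2000 variable genes without histone genes, 30 principal components and 20 neighbours gave 24 Leiden clusters at resolution 1. Clusters were named from marker genes. Sub-clusters used 15 neighbours. Cell cycle states came from scores on S and G2/M gene lists without histone genes and without any gene of the 3 histone-related lists. UMIs were summed per library with class (16 sums), or class and state (14 sums), for groups of at least 10 cells in each library, and tested with edgeR 4.0.16 in R 4.3.3 (TMM, filterByExpr, quasi-likelihood F test, Benjamini-Hochberg over all genes). Standard errors were derived from the F statistic. DESeq2 1.42.0 was an alternative. The scripts were tested on simulated data. All sums of 1 number come from the same library, so the numbers pair the sums. Deviations of paired sums correlated with a median r of 0.0819 (-0.0204 to 0.369) over 28 pairs of classes and 0.191 (0.0752 to 0.363) over 21 pairs of class and state. The fit without the block was kept as the main one. Counting intervals are exact at 95%.

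The 62 genes, the gene lists and the tests were chosen with earlier results of these data known. Named genes were the 20 with most UMIs, the H1 genes with at least 100 UMIs, up to 5 called genes per direction and comparison with the same sign in both libraries, the 5 most abundant in excitatory neuron-like cells and the 3 whose share of histone UMIs differed most between libraries, with up to 4 called genes per direction and Slbp for the other lists. Transcripts were matched by Ensembl ID and promoters by RefSeq gene (GRCm38.p6).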

Additional observations from a re-analysis of the deposited data

Results flagged for a closer look

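The S-like against G1-like log2 change of Hist3h2ba was -0.70 in RGC-like and -2.08 in IPC-like cells, and the interaction of 1.38 (adjusted p = 0.0116, edgeR) marked it for a closer look. For Hist3h2a the changes were -1.14 and -2.81 and the interaction 1.67 (adjusted p = 0.0232). The interaction had the same sign in both libraries for both genes, at 1.14 and 1.51 for Hist3h2ba and 2.004 and 1.26 for Hist3h2a. It passed in 9 of 14 settings for Hist3h2ba and in 6 of 14 for Hist3h2a, the settings that leave out a library not counted.

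Hist1h4m, an H4 gene that met no count rule because it had 0 UMIs in replicate 2, had 14 UMIs in replicate 4.

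Cells that received no class name, 87 and 79 of them with median depths of 5668 and 4890 UMIs, were used in no comparison. In these cells the 60 genes without the Hist3 pair summed to 1357 and 1101 CPM, with a mean of 1229, and the Hist3 pair to 292 and 145.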

How the results depend on the processing

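With 2 libraries, the spread rests on few values, and depth, cell filters and cluster limits all moved some calls. Counts of called histone genes stayed within 1.5 times the reported value except as follows, and the cause of a change was not tested. Thinning all cells to 5000 UMIs left 13 genes tested between classes and 17 between states, against 31 and 47, so fewer could be called, and 51.8%, 28.7% and 35.7% of all genes were called in the first 3 comparisons. It gave 12 genes (RGC-like against excitatory neuron-like), 9 (IPC-like against excitatory neuron-like), 13 (RGC-like against IPC-like) and 1 (MGE interneuron-like). Between states it gave 9 and 12 of 17 (S-like against G1-like, RGC-like and IPC-like), where 10.6% and 14.7% of all genes were called. It gave 0 and 2 for S-like against G2/M-like (3.64% and 6.82% of all genes) and 1 for S-like RGC-like against IPC-like (10.7%). The G1-like IPC-like to neuron comparison gave 2 and the interaction 1. Testing all genes with at least 1 count brought in all 62 histone genes and gave 50, 36 and 1 of them in the RGC-like to neuron, RGC-like to IPC-like and MGE comparisons (31.8%, 20.8% and 10.4% of all genes), and moved the median of all genes by -0.21 in the G1-like RGC-like to neuron comparison and by 0.15 in the interaction. DESeq2 called 1 MGE gene, with a shift of the median of all genes of 0.12 and 47.4% of called genes higher against 34.0%. RGC-like against IPC-like cells had 9 of 31 called genes without the neuronal IPC-like cluster (chosen after seeing the data; 26.2% of all genes), 4 of 31 and 11 of 28 at Leiden resolutions 0.5 and 2 (24.8% and 28%), 8 of 25 with a limit of 500 genes (26.2%), 12 of 25 with at most 5% mitochondrial UMIs (32.2%) and 31 of 36 with doublets kept (35.7%). The excess over all genes was thus small without the cluster and at 500 genes, and absent at resolution 0.5. The mitochondrial limit gave 1 MGE gene. Keeping doublets gave 13 of 47 for S-like against G1-like RGC-like cells, where 12% of all genes were called. It gave 0 and 3 for S-like against G2/M-like (4.03% and 10.4% of all genes) and 4 for S-like RGC-like against IPC-like (15.9%). For G1-like IPC-like cells against neurons it gave 3. Leiden resolution 0.5 gave 0 and 8, and the 500-gene limit 0 and 3, in the S-like against G2/M-like comparisons, and the latter 1 for S-like RGC-like against IPC-like. States scored after thinning gave 0 and 3 there and 1 for the interaction. Leaving out cells near a state boundary gave 0 for S-like RGC-like against IPC-like cells (15.1% of all genes called) and 1 for the interaction (4.36%). It gave 5 and 2 for G1-like RGC-like and IPC-like cells against neurons (41.9% and 32% of all genes). The interaction was called in 0 genes without the neuronal cluster, at both other resolutions, at 500 genes and at 5% mitochondrial UMIs. With the library as replicate block, the counts were 2 and 10 (S-like against G2/M-like) and 4 (S-like RGC-like against IPC-like), and the other counts stayed within 1.5 times. Counts in this section without a share of all genes beside them do not show a change particular to the histone genes.

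The mean sum of the 62 genes in IPC-like cells (809 CPM) was 874 at resolution 0.5 and 948 at 500 genes. At 500 genes that of G1-like RGC-like cells (396) was 553 and of S-like IPC-like cells (1020) 1385. That of G1-like IPC-like cells (598) was 432 without the neuronal cluster, 431 and 505 at resolutions 0.5 and 2, and 522 at both 500 genes and 5% mitochondrial UMIs. Leaving out 1 library in turn gave 1250 to 1842 CPM in RGC-like cells, 762.3 to 855 in IPC-like, 570 to 636 in excitatory neuron-like and 430 to 605 in MGE interneuron-like cells. By state it gave 1102 to 2051 (S-like), 1719 to 2311 (G2/M-like) and 309 to 483 (G1-like) in RGC-like cells, and 840 to 1201, 1609 to 2406 and 554 to 643 in IPC-like cells; no test is possible with 1 library.

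Single-gene calls were less stable than their signs. Of 186 called values, 110 stayed called in every alternative in which they were tested and 76 lost the call in at least 1. The latter numbered 6 of 46 in RGC-like against excitatory neuron-like cells, 17 of 20 in RGC-like against IPC-like cells, 14 of 36 and 12 of 28 in the S-like against G1-like comparisons, and all 5, 2 and 2 in G1-like IPC-like cells against neurons, in S-like RGC-like against IPC-like cells and in the interaction. Over 193 values and 15 alternatives, of 2534 values 244 lost the call with the same sign, most often at Leiden resolution 0.5 (39), at 500 genes (32) and with doublets kept (30), 17 gained one, 80 moved when 1 library was left out, and 8 changed sign. These were Hist1h2bp in G1-like RGC-like against neurons (2.75, called, and -3.21 with doublets kept), Hist3h2ba in IPC-like against neurons (0.0027 with doublets kept) and Hist3h2ba in G1-like IPC-like against neurons (0.0011 with the DESeq2 Wald test and with DESeq2 size factors, 0.0596 without boundary cells, 0.20 with doublets kept, 0.0204 with states after thinning and 0.0807 with thinned UMIs). The Hist3h2ba values were not called in the main test either.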
